A study of Mus musculus with 6 samples.

Results

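Transcripts of 10 immediate early and inducible feedback genes were followed in 6 libraries of mouse condylar cartilage. They are Fos, Fosb, Jun, Junb, Egr1, Atf3, Ier2, Dusp1, Zfp36 and Socs3, taken by symbol from the deposited tables, where all 10 of 10 were found among 24346 genes. The control mice are labelled fl/fl, the usual notation for a floxed gene, with the genotype given as control (3 libraries). The mutant mice (3 libraries) lacked Ihh, the gene for Indian hedgehog, in craniofacial neural crest cells, and were checked in the study for Ihh, Cre and Tomato. The condylar cartilage, the growth cartilage of the lower jaw joint, was dissected under a microscope in both groups. The Cre driver, the age of the mice, the number of animals per library and the time from death to RNA extraction are not stated in the sources used here. Libraries of a group are not stated to come from separate animals, so the p-values reflect variation among these samples, some of which may be technical.

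Immediate early genes are transcribed from promoters that are poised before any stimulus, and need no new protein for their induction. Growth factors, cytokines, mechanical load, injury and tissue dissection all induce them, and they are therefore often read as a sign of how a tissue was handled. Fos, Jun and their relatives form the dimeric transcription factor AP-1, Egr1 is a zinc finger factor of the same first wave, and the feedback genes then restrain the signal: Dusp1 removes phosphate from MAP kinases, Zfp36 (tristetraprolin) speeds the decay of AU-rich mRNAs and Socs3 blocks cytokine receptors that signal through JAK and STAT3. In growth cartilage, AP-1 factors are known to take part in chondrocyte proliferation and hypertrophy.

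Values are FPKM, fragments scaled to transcript length and library total. They can be compared between genes only as far as the lengths used are right, which was not tested. Where a value is given for each library, the order is replicate 1, 2 and 3. The spacing of low values gave library totals of 0.993 to 1.33 relative to control 1. Gli1, a direct hedgehog target, stood at 7.10 to 9.53 FPKM in controls and 0.168 to 0.807 FPKM in mutants, whereas Ihh measured 2.51 to 3.74 and 2.18 to 2.66 FPKM. Olfactory receptor genes, largely silent outside the nose, reached 6.49 to 8.58 FPKM at their 90th percentile, and below that level in their own library lay Fosb in all 6 libraries, Socs3 in 4, Zfp36 in the 3 controls, Atf3 in control 2 and mutant 1, Ier2 in control 2 and Jun in mutant 3. The X-inactivation transcript Xist was present in controls 1 and 2 alone (29.5 and 29.2 FPKM against 0.577 to 0.984 elsewhere), so the balance of sexes differed between groups. In bulk tissue, fewer cells of a type and less RNA per cell cannot be told apart.

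The genes are described by whether the groups overlapped, and a difference between the resulting sets was not tested. For Dusp1, Zfp36, Socs3, Ier2 and Egr1, each of the 3 mutant libraries lay above each of the 3 controls, with mean levels 1.73 to 3.51 times as high. For the AP-1 genes Fos, Jun, Junb and Atf3 the groups overlapped, and Fosb was close to the limit of counting. Fold changes are differences of log2(FPKM + 1), which understates the change of low genes. None of the 9 genes that could be tested passed (limma, Benjamini-Hochberg adjusted p over 18715 genes), where 1.24% of all genes did, and the closest was Dusp1 (adjusted p = 0.0619). At an unadjusted p below 0.05 there were 5 of 9, all higher in mutants (1486 of 18715 genes higher, 14.1% in either direction). The same 5 of 9 had mutants above controls without overlap, against 9.77% of all genes.

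**Figure D1:**
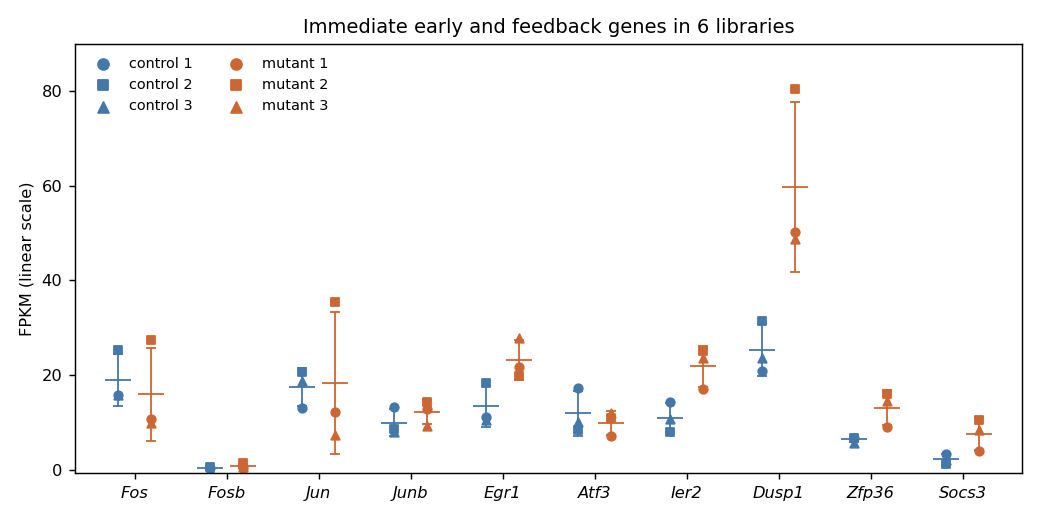
FPKM on a linear axis for each of the 10 genes, with controls in blue and mutants in orange, the marker shape giving the replicate number and the bars the mean and SD of 3 libraries. Dusp1, Ier2, Zfp36, Socs3 and Egr1 show mutant points above all control points, while for Fos and Jun mutant 2 is highest and mutant 3 lowest.

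Dusp1, the phosphatase of p38, JNK and ERK kinases, was the most abundant of the 10 in both groups. It stood at 20.9, 31.5 and 23.5 FPKM in the controls and at 50.2, 80.5 and 48.7 FPKM in the mutants. The lowest mutant thus stood well above the highest control. The mean was 25.3 ± 5.54 FPKM in controls and 59.8 ± 17.9 FPKM in mutants (SD, n = 3 each), a log2 fold change of 1.19 ± 0.25 (SE), with a 95% interval of 0.62 to 1.76. It was called with a filter at 5 FPKM in at least 3 libraries (limma adjusted p = 0.0351) and after quantile normalization (limma adjusted p = 0.0468), and in none of the other 16 settings tried. Exons annotated to Dusp1 overlap exons of Ergic1 on the other strand, and reads within the shared stretch cannot be assigned without strand. Ergic1 stood at 45.5 to 50.1 FPKM in controls and 35.6 to 44.7 FPKM in mutants, and the part of this overlap in the Dusp1 values was not tested.

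Zfp36, whose exons overlap those of Gm44710 on the other strand (not analysed here), stood at 6.70, 6.75 and 5.71 FPKM in the controls and at 8.95, 16.0 and 14.4 FPKM in the mutants. The controls were close to each other and mutant 1 was the mutant nearest to them. The log2 fold change was 0.90 ± 0.26 (SE; limma adjusted p = 0.146). Socs3, the lowest of the 3 feedback genes, stood at 3.32, 1.11 and 2.08 FPKM in the controls and at 3.88, 10.6 and 8.39 FPKM in the mutants. Its difference of 1.41 ± 0.41 (SE; limma adjusted p = 0.147) was the largest on the log2 scale among the 9, yet mutant 1 was only just above control 1.

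Promoters of these 3 feedback genes are shown beside that of Fos, whose groups overlapped, because their control elements are the textbook examples of inducible transcription. The sequences are the 250 bases before the RefSeq start (build GRCm38.p6), 5′ to 3′ on the strand of the gene, at chr17:26508473-26508722 (minus strand) for Dusp1, chr7:28379229-28379478 (minus strand) for Zfp36, chr11:117969367-117969616 (minus strand) for Socs3 and chr12:85473640-85473889 (plus strand) for Fos. Capitals mark matches to any of the motifs named in the next paragraph.
Dusp1: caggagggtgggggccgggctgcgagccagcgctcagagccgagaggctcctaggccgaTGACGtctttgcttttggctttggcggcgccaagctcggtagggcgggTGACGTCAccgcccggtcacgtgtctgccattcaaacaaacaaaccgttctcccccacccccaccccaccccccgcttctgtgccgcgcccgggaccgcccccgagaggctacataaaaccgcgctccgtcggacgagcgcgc
Zfp36: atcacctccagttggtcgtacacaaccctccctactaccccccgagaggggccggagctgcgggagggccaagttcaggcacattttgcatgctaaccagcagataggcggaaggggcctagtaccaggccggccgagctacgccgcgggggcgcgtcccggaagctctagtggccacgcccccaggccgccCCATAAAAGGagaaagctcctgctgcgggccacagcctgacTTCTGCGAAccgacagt
Socs3: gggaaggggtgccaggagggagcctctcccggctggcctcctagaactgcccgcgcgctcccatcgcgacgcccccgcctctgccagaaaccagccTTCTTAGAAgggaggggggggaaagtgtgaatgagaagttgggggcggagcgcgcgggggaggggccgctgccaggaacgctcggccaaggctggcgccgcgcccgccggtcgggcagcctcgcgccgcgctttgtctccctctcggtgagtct
Fos: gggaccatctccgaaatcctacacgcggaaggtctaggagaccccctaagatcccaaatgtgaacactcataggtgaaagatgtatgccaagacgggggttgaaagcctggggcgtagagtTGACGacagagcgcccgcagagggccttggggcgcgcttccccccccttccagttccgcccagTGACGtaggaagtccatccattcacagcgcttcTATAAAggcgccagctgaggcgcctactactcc

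Of the 10 genes, 8 had an entry in the RefSeq promoter table, and Egr1 and Ier2 had none. Motifs were sought on both strands in 300 bases, from 250 before to 50 after the start, and a match is a description of letters only. The cyclic AMP response element TGACGTCA, found in 1.79% of 32851 promoter windows, was matched in Dusp1 alone of the 8, starting 143 bases before the start. Its 5-base core TGACG, which the full element contains and which was added after the sequences were seen, was matched in Dusp1, Fos, Fosb, Junb and Atf3, in 5 of 8, against 20.8% of all windows. The CArG box, the core of the serum response element, was matched in Zfp36 alone (1.63% of windows), and a loose STAT motif, TTCNNNGAA, in Zfp36 and Socs3 (8.30% of windows). Sites more than 250 bases before the start were not searched. A window without a match, as that of Fos for the CArG box, therefore does not show that the gene lacks the element. The stricter TTCCNGGAA (1.15% of windows), the ETS site CCGGAAGT (3.89%) and the AP-1 site TGACTCA or its complement TGAGTCA (5.20%) were in none of the 8, and TATAAA (13.6%) was in Fos and Junb.

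Ier2, a nuclear protein of the first wave of induced genes, stood at 14.3, 8.0 and 10.7 FPKM in the controls and at 17.0, 25.1 and 23.6 FPKM in the mutants. The groups did not overlap, with mutant 1 again the mutant nearest to the controls. The means were 11.0 ± 3.16 and 21.9 ± 4.33 FPKM (SD, n = 3 each), with a log2 fold change of 0.95 ± 0.26 (SE; limma adjusted p = 0.132). Egr1 stood at 11.2, 18.3 and 10.6 FPKM in the controls and at 21.7, 19.8 and 27.9 FPKM in the mutants. It was the only 1 of the 10 with its highest value in mutant 3. Control 2 came close to mutant 2, and the log2 fold change was 0.77 ± 0.26 (SE; limma adjusted p = 0.205).

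Fos stood at 15.9, 25.3 and 15.8 FPKM in the controls and at 10.7, 27.3 and 9.80 FPKM in the mutants. Mutants 1 and 3 lay below every control and mutant 2 above every control, so the groups overlapped with a log2 fold change of -0.35 and a 95% interval of -1.20 to 0.50 (limma adjusted p = 0.777). Jun, the partner of Fos in AP-1, had the same form; its exons overlap those of Junos on the other strand (not analysed here). It stood at 13.1, 20.7 and 18.8 FPKM in the controls and at 12.2, 35.4 and 7.31 FPKM in the mutants, with a log2 fold change of -0.20 and a 95% interval of -1.28 to 0.88 (limma adjusted p = 0.91). The mean of Jun was 17.5 FPKM in controls and 18.3 FPKM in mutants, so its direction differed between the linear and the log2 scale. The mutant SD of Jun, 15 FPKM, was nearly as large as its mutant mean of 18.3 FPKM. These intervals do not show that Fos or Jun was equal in the groups.

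Junb, an AP-1 subunit that can oppose Jun, stood at 13.2, 8.58 and 8.01 FPKM in the controls and at 12.8, 14.2 and 9.30 FPKM in the mutants. Control 1 was higher than mutants 1 and 3, and the log2 fold change was 0.27 ± 0.26 (SE; limma adjusted p = 0.748). Junb exons overlap those of Prdx2 on the other strand. Prdx2 stood at 328 to 357 FPKM in controls and 353 to 455 FPKM in mutants, far more than Junb itself, and the part of this overlap in the Junb values was not tested. Atf3, a stress-induced partner of Jun, stood at 17.3, 8.32 and 10.1 FPKM in the controls and at 7.10, 10.8 and 11.9 FPKM in the mutants. Its highest value was in control 1 and its lowest in mutant 1 (log2 fold change -0.20 ± 0.31 SE; limma adjusted p = 0.848). Fosb stood at 0.390, 0.589 and 0 FPKM in the controls and at 0.391, 1.30 and 0.555 FPKM in the mutants, and did not reach 1 FPKM in 3 libraries, so it was not tested.

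**Figure D2:**
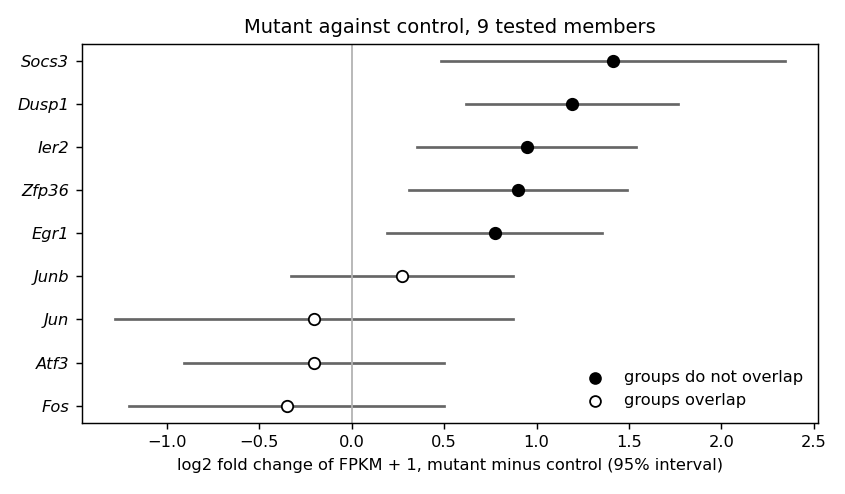
Log2 fold change of FPKM + 1, mutant minus control, for the 9 tested genes, with points as estimates, lines as 95% intervals from limma and filled points where the groups do not overlap. Socs3 at 1.41 and Dusp1 at 1.19 lie farthest to the right, and the intervals of Fos, Jun, Junb and Atf3 include 0.

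Because low values are whole multiples of the worth of a fragment, the number of fragments behind each value could be recovered as the smallest whole numbers that fit all 6 libraries, within 0.0039 of a fragment for every one of the 10 genes. Dusp1 rested on 208 fragments in the 3 controls and 494 in the 3 mutants, Ier2 on 69 and 136, Zfp36 on 47 and 97, Egr1 on 179 and 308, and Socs3 on 13 and 46. For these 5 genes the scaled ratio of mutant to control is above 1 by their choice, as their groups do not overlap. Its exact 95% interval lay above 1 as well, from 1.92 to 7.29 for Socs3 and from 2.06 to 2.87 for Dusp1. The interval included 1 for Fos (0.706 to 1.12), Jun (0.911 to 1.30), Junb (0.913 to 1.72) and Atf3 (0.632 to 1.16). These intervals cover counting error only, not the spread between libraries, and reads without molecular identifiers are not independent molecules. Fosb rested on 5 and 13 fragments, with a ratio of 2.66 and an exact interval of 0.889 to 9.52, so a difference was not detectable at this depth. Its 0 in control 3 allows a level of up to 0.440 FPKM, the worth of 3 fragments there, and the exact two-sided Poisson limit was 0.540 FPKM.

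Jun had the widest spread among mutants relative to its mean (SD over mean of the 10 genes). Its 182 fragments in mutant 2 gave an exact 95% Poisson interval of 30.4 to 40.9 FPKM, and its 33 fragments in mutant 3 an interval of 5.03 to 10.3 FPKM. With the longest coding transcript in GENCODE M21, the worth of a fragment implied 1240000 to 1360000 fragments in control 1 for 7 of the genes and 709000 to 918000 for Egr1, Zfp36 and Socs3. The smallest fitting numbers, or the transcript lengths, may therefore be too low or too long for those 3, in which case their counting intervals would change.

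Mutant 2 was the library in which most of these genes peaked. Of the 9 tested genes, 7 had their highest value there, against 18.01% of all 18715 genes, and the exceptions were Egr1 (mutant 3) and Atf3 (control 1). The count of 7 was the same after median scaling of the libraries. Of the cell type markers, 9 of 10 skeletal muscle, 7 of 8 neutrophil, 4 of 6 osteoblast and 4 of 6 erythroid markers were also highest in mutant 2. It was 4 of 8 for endothelial, 3 of 7 for macrophage, 2 of 6 for adipocyte and 2 of 6 for fibroblast markers. For chondrocyte markers it was 1 of 8 and for pericyte and smooth muscle markers 0 of 6. The part of these markers in the members' values was not tested. Averaged over Fos, Jun, Junb and Atf3, the level relative to each gene's own mean came to 0.16, 0.088 and -0.067 in the controls and to -0.30, 0.55 and -0.43 in the mutants. Mutant 2 was the highest library of this average and mutant 3 the lowest. Of the genes averaged, Fos and Jun alone had this form. Junb was highest in mutant 2 but lowest in control 3, and Atf3 was highest in control 1 and lowest in mutant 1. For the 5 genes whose groups did not overlap, which the choice itself places above 0 in mutants, the average was 0.16 in mutant 1, 0.78 in mutant 2 and 0.63 in mutant 3. Without mutant 2 the log2 fold change of Fos was -0.80 and that of Dusp1 0.96 (limma adjusted p = 0.159).

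**Figure D3:**
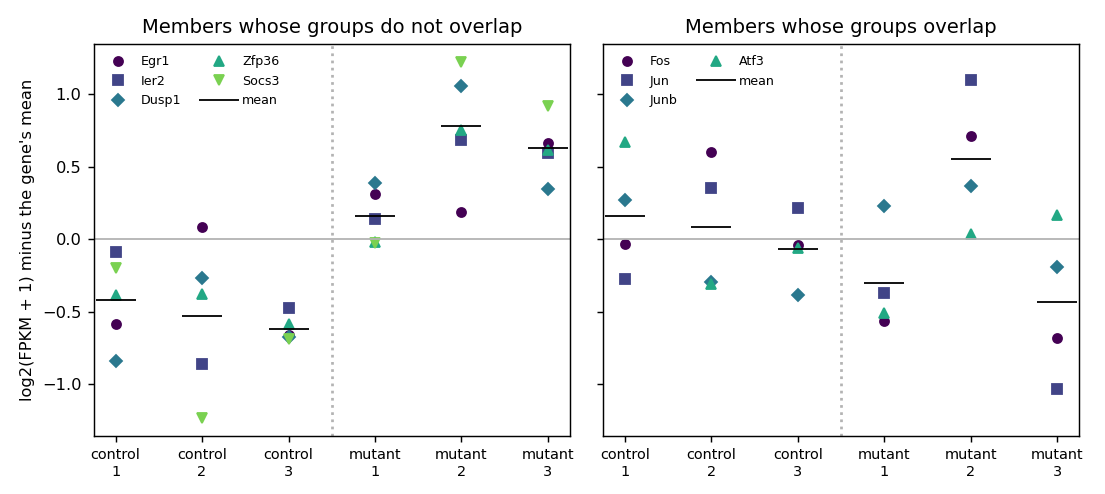
Log2(FPKM + 1) minus the gene's mean over 6 libraries, by library, for the 5 genes whose groups do not overlap (left) and the 4 whose groups overlap (right), with symbols for genes and black bars for their mean. The side of 0 on which the left bars lie follows from how those genes were chosen, and the right bars are highest in mutant 2 (0.55) and lowest in mutant 3 (-0.43).

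The numbers in the deposited library names form a lower run (controls 1 and 2 and mutant 2) and a higher run (control 3 and mutants 1 and 3), and what they stand for is not stated in the sources used here. For Dusp1, Zfp36, Socs3, Ier2 and Egr1, whose direction within any run is fixed by groups that do not overlap, mutants exceeded controls by 0.44 to 1.94 log2 units in the lower run and 0.84 to 1.14 in the higher, with 1.61 and 1.04 for Dusp1. Fos differed by 0.43 log2 units in the lower run and -0.58 in the higher, and Jun by 1.06 and -0.92. The difference between the runs was not called for any of the 9 genes (limma interaction, adjusted p of 0.724 for Jun to 0.994 for Junb), with unadjusted p = 0.0159 for Jun by limma, and each run held a group with 1 library. With the run as a covariate the log2 fold change of Dusp1 was 1.33 (limma adjusted p = 0.0744).

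Relative to Fos in the same library, which no scaling of libraries can alter, the feedback genes separated the groups. For mutants 1 and 3 this was fixed by the levels, as Fos lay below every control there and these genes above. The same holds for Ier2 and Egr1, so only mutant 2 was open. The ratio of Dusp1 to Fos was 1.32, 1.25 and 1.49 in the controls as against 4.69, 2.95 and 4.97 in the mutants. The lowest mutant ratio, that of mutant 2, was well above the highest control ratio. The ratio of Socs3 to Fos was 0.209, 0.0441 and 0.131 in the controls as against 0.362, 0.387 and 0.857 in the mutants, and Ier2 and Zfp36 were likewise higher in all mutants. For these 4 the exact two-sided permutation test gave p = 0.1, the smallest that 3 against 3 allows. Only the place of mutant 2 was free in that test, so it adds little to the levels. The ratio of Egr1 to Fos was 0.704, 0.726 and 0.670 in the controls as against 2.02, 0.725 and 2.85 in the mutants, with mutant 2 among the controls (exact permutation p = 0.2). Jun, Junb and Atf3 overlapped as well (exact permutation p of 0.2 to 0.9). These 8 ratios were formed after the levels were seen and share Fos as the denominator, so they are not independent, and no value would pass after adjustment.

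**Figure D4:**
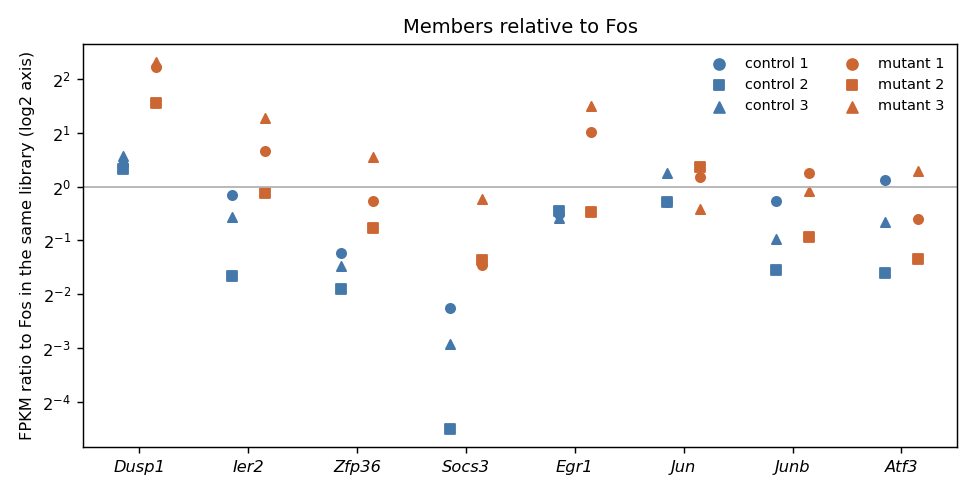
Ratio of FPKM to that of Fos in the same library, on a log2 axis, with controls in blue, mutants in orange and the marker shape giving the replicate number. Dusp1, Ier2, Zfp36 and Socs3 show all mutants above all controls, and Egr1 of mutant 2 (0.725) lies among the controls.

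Among controls the order of levels was Dusp1, Fos, Jun, Egr1, Atf3, Ier2, Junb, Zfp36, Socs3 and Fosb, from 25.3 to 0.326 FPKM. The ranges of neighbours overlapped from Dusp1 down to Junb, and Zfp36, Socs3 and Fosb each lay apart from their neighbours. Among mutants the order was Dusp1, Egr1, Ier2, Jun, Fos, Zfp36, Junb, Atf3, Socs3 and Fosb. There Dusp1 (48.7 to 80.5 FPKM) lay apart from Egr1 (19.8 to 27.9 FPKM), and Socs3 from Fosb, and all other neighbours overlapped.

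Other genes of the same kinds were examined as lists. Of 25 tested further immediate early genes, 1 was called, higher in mutants, where 0.775% of all genes were called in that direction. It was Cebpb, a transcription factor of inflammation and fat cell differentiation, which stood at 10.6, 6.42 and 7.58 FPKM in the controls and at 19.7, 55.3 and 28.7 FPKM in the mutants (log2 fold change 1.85, limma adjusted p = 0.0496). That call was lost in 15 of 18 other settings, whichever single library was left out included, with log2 fold changes of 0.81 (muscle markers as a covariate, limma adjusted p = 0.912) to 2.18. The list's median log2 fold change was 0.40, against 0.00085 over all genes tested, with 20 positive and 5 negative, and 16 of the 25 had their highest value in mutant 2. By the smallest p, Cebpb was followed by the kinase Sgk1 (mean 26.1 FPKM in controls and 57.8 in mutants, adjusted p = 0.123), the TGF-beta-induced factor Klf10 (26.5 and 41.2 FPKM, adjusted p = 0.15) and Klf2, a factor of endothelial and blood cells (16.8 and 30.0 FPKM, adjusted p = 0.203), none of which passed limma's test.

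Of 22 tested further feedback genes, 0 were called by limma, and the median log2 fold change was 0.29. An unadjusted limma p below 0.05 was found for 4, all higher in mutants (1486 of 18715 genes higher, 14.1% in either direction). The 4 were Gadd45a, a stress gene that restrains the cell cycle, Zfp36l1, a relative of Zfp36, Nfkbia, the inhibitor of NF-kappa B, and Errfi1, which inhibits the EGF receptor. Nfkbia stood at 26.9, 45.5 and 38.1 FPKM in the controls and at 45.7, 92.5 and 52.0 FPKM in the mutants. Mutants lay above controls without overlap by a narrow margin (log2 fold change 0.73, limma adjusted p = 0.312). Dusp6 and Spry4, feedback genes of FGF signalling through ERK, had log2 fold changes of 0.41 and -0.42 (limma adjusted p = 0.482 and 0.635), so they did not share a direction with each other.

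Of 13 tested secreted and inflammatory response genes, 0 were called by limma, 0 had an unadjusted p below 0.05 and 0 had groups without overlap, with a median log2 fold change of 0.23 (8 positive and 5 negative). Those with the smallest p were Cxcl1 (-0.47), Ccl7 (-0.59), Ccl2 (0.44) and Il1b (0.53 log2 units), with limma adjusted p of 0.555 to 0.742. Of 23 upstream kinases and transcription factors, 0 were called, with a list median of 0.18. An unadjusted limma p below 0.05 was found for 5, all higher in mutants (1486 of 18715 genes higher, 14.1% in either direction). Among them were Map2k3 and Mapkapk2 of the p38 pathway, Stat3, which acts upstream of Socs3, and the cytokine receptor subunit Il6st. Map2k3 stood at 55.1, 53.3 and 58.5 FPKM in the controls and at 100.01, 126.6 and 73.1 FPKM in the mutants (limma adjusted p = 0.131). Stat3 stood at 14.8 to 17.5 FPKM in controls and 19.7 to 32.6 FPKM in mutants (limma adjusted p = 0.215).

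Heat shock genes, which also respond to stress of a tissue, were divided. Of 10 tested, 0 were called by limma and 4 had an unadjusted p below 0.05 (14.1% of all genes had), 2 in each direction. Hspb1 (53.4 to 109 FPKM in controls and 137 to 242 FPKM in mutants) and Cryab (88.4 to 194 and 228 to 374 FPKM), small heat shock proteins that are abundant in muscle, were higher in mutants, with limma adjusted p = 0.132 and 0.118. Hsp90aa1 (97.2 to 113 and 57.4 to 75.4 FPKM) and Hsph1 (9.999 to 15.7 and 6.66 to 9.38 FPKM) were lower, with limma adjusted p = 0.103 and 0.261. The inducible Hspa1a and Hspa1b were at 0 to 4.22 FPKM in controls and 1.35 to 6.34 FPKM in mutants.

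**Figure D5:**
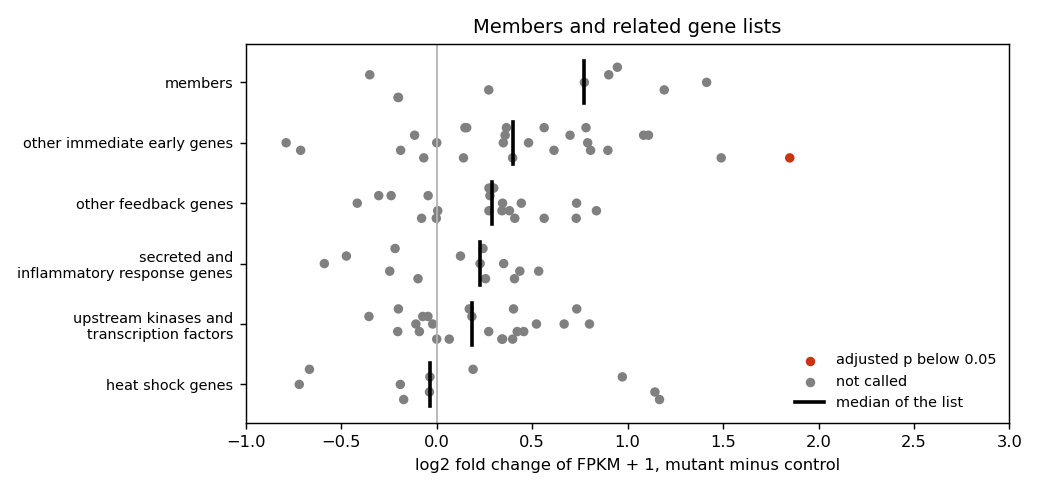
Log2 fold change of FPKM + 1, mutant minus control, for every tested gene of 6 lists (rows), with Cebpb in red as the called gene, black bars for list medians and a grey line for the median of all genes tested. The median is 0.77 for the 9 members, 0.40 for further immediate early genes and -0.037 for heat shock genes.

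Markers of other cell types differed between the same groups. The summed level of 10 skeletal muscle markers was 3130 to 7495 FPKM in controls and 13563 to 25179 FPKM in mutants, with 7 of 10 called higher, and that of 8 endothelial markers was 74.1 to 125.0 and 204 to 232 FPKM, with 2 of 8 called higher. The 8 chondrocyte markers in the tables, among them Col2a1 and Acan, summed to 287 to 376 FPKM in controls and 155 to 198 FPKM in mutants, with 3 of 8 (Hapln1, Acan and Col9a1) called lower, where 0.465% of all genes were. Of the other 5, the matrix gene Comp stood at 9.19 to 22.6 FPKM in controls and 23.0 to 91.9 FPKM in mutants (log2 fold change 1.56, limma adjusted p = 0.173), and Col11a2 overlapped between the groups (-0.22). The sums of 8 neutrophil markers were 121 to 196 FPKM in the controls as against 464, 683 and 121 FPKM in the mutants. Cxcr2, the 1 of the 8 with a negative log2 fold change (-0.16), gave 90.1, 90.9 and 68.8 FPKM of these sums in the controls. In the mutants it gave 83.1, 60.7 and 80.1 FPKM. Sums of 6 adipocyte markers were 77.6 to 320 and 309 to 699 FPKM, with 1 of 6 (Plin4) called higher. Those of 8 macrophage markers were 52.0 to 90.9 and 45.0 to 121.6 FPKM. Osteoblast, pericyte, fibroblast and erythroid sums overlapped between the groups. No marker in the tables was at 0 in all 6 libraries. With the muscle marker mean as a covariate, the log2 fold changes of the 5 separated genes were 0.53 for Ier2 to 1.97 for Egr1. Their limma adjusted p was 0.706 to 0.936. With Xist as a covariate they were 0.92 to 1.35, with limma adjusted p of 0.33 to 0.506. Their SE, 0.25 to 0.41 without a covariate, was 0.52 to 1.08 with muscle and 0.35 to 0.60 with Xist. The muscle sums did not overlap between the groups, so that fit cannot separate muscle from the group. Xist was high in controls 1 and 2 alone, so the fit with Xist rests on control 3 as the only control with low Xist. Without controls 1 and 2, the log2 fold changes were 1.27 for Dusp1, 1.40 for Socs3, 0.95 for Ier2, 1.04 for Zfp36 and 1.04 for Egr1. With a single control library left, the part of sex was not tested. Which cells carried the transcripts, and the part of these markers in the differences, was not tested.

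The 8 genes outside all lists whose levels over the 6 libraries were most like the mean of the 9 tested members were sought among 6007 genes, by the root mean square difference of centred log2 values. Among them were Calcoco1, Map1lc3b, Jdp2, Hsd17b4, 1110008F13Rik, S1pr3 and Ctsd, and the differences of the 8 ran from 0.072 to 0.123 log2 units. Map1lc3b, which encodes the autophagy protein LC3B, stood at 159, 144 and 133.4 FPKM in the controls and at 168, 250 and 175 FPKM in the mutants. Jdp2, which encodes a bZIP protein that binds Jun, stood at 23.2, 25.4 and 21.7 FPKM in the controls and at 24.2, 43.3 and 32.2 FPKM in the mutants. Both were highest in mutant 2, as were the other 6. This follows from their choice, as the members' mean was 0.68 in mutant 2 and 0.16 in mutant 3, the next highest. None of the 8 was called by limma (adjusted p of 0.197 to 0.452).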

How the data were processed

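Total RNA was extracted with the miRNeasy kit, SMART-Seq HT was used for cDNA and Nextera for libraries, per the labels' protocols. Such libraries keep no strand. The authors deposited 1 table per library with 24346 gene symbols. The unit was taken to be FPKM, as made by the authors with Cufflinks 2.2.1, because values were not whole, never negative and summed differently per library (581072 to 738395). TopHat2 2.0.13, Bowtie2 2.2.3, SAMtools 0.1.19 and the build mm10 are also named in the submitters' processing notes. The annotation is not stated in the sources used here.

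The 18715 genes that reached 1 FPKM in 3 or more libraries entered limma 3.58.1 as log2(FPKM + 1) (R 4.3.3; trend, robust) for mutant against control, with Benjamini-Hochberg adjustment over all of them and a threshold of 0.05. The plan also held a test for counts, which the files did not allow. Without the minimum, 22495 genes were tested and 133 called, against 232 of 18715. The script was checked on simulated data. Fragment numbers were the smallest whole numbers, up to 400 in the library with the most, that fitted all 6 values within 0.03 of a fragment at 1 relative total per library. Of 1929 tested genes below 3 FPKM in every library, 92.0% had such numbers. Intervals at 95% were exact (SciPy 1.17.1). Positions and overlaps are from GENCODE M21 and promoters from RefSeq.

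The members and lists were chosen with earlier results of these data known. Named genes were the 10 members, called genes and up to 4 genes of smallest p in each related list, and the 8 most alike genes. Genes outside this rule (Dusp6, Spry4, Hspa1a, Hspa1b, the cell type markers named and the genes that overlap members) were chosen after their values were seen. Some genes that meet the rule are not reported here.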

Additional observations from a re-analysis of the deposited data

How the results depend on the processing

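The share of tested genes called, 1.24%, became 2.196% after quantile normalization, 0.591% of 22495 genes when low values were kept, 3.84% of 11456 genes with a minimum of 5 FPKM, 0.273% with the run of library numbers as a covariate, 0.0107% with Xist or 0.0107% with the muscle marker mean as a covariate, 0.0267% without controls 1 and 2, and 0.0695% to 2.21% when a single library was left out (the lowest without control 1 and the highest without mutant 3, with 0.107% when control 2 was left out, 0.102% for mutant 1 and 0.305% for mutant 2). With the replicate number as a block it was 0.0107%. Same-numbered libraries did not deviate together (correlations of 0.0063, -0.016 and -0.0091), so the numbers were not taken as pairs. The count of 0 members called became 1, Dusp1, after quantile normalization and 1 with the filter at 5 FPKM, where fewer genes were tested. It was 0 to 0 when a single library was left out.

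Dusp1, Zfp36, Socs3, Ier2 and Egr1 kept a positive log2 fold change in every setting that tested them, which for left-out libraries follows from groups that do not overlap, and Fos a negative value from -1.10 to -0.075. Jun ranged from -0.80 to 0.27 when a single library was left out, turning positive without mutant 3, and was 0.070 with the run and -2.16 with the muscle marker mean as a covariate, Junb turned to -0.36 with the muscle covariate, and Atf3, from -0.41 to 0.081 when a single library was left out, turned positive without control 1 (0.081) or mutant 1 (0.0011). The cause was not tested, and the fit with the muscle covariate cannot separate it from the group. Settings for Cebpb, the fragment numbers and the interaction with the run were chosen after the data were seen. Depth limited Fosb and Socs3 most, with 18 and 59 fragments in all.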
